A study of Mus musculus with 18 samples.

Results

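The genes described here encode the machinery of synaptic vesicle exocytosis. They were chosen by symbol, as the genes named Syt, Stx, Vamp, Snap, Stxbp, Cplx, Rims or Syn followed by a number, together with Unc13a to Unc13d, Sv2a to Sv2c and Syp, and a name marking a pseudogene was dropped. This gave 71 of the 34620 genes listed. RNA-Seq libraries of the microdissected ventral dentate gyrus were made from males of the outbred Swiss Webster strain at an adult age of 8 to 12 weeks, with 2 libraries each from WT, F1 and F2 animals. WT males had WT mothers and grandmothers. F1 males had mothers with a single working copy of the serotonin 1A receptor gene (5HT1A-/+), and the mothers of these are also labelled 5HT1A-/+. F2 males had WT mothers and 5HT1A-/+ grandmothers. In the study, F1 animals were bred from parents that were both heterozygous, beside heterozygous and knockout littermates. F2 animals were bred from F1 females and WT males. The study describes both F1 and F2 animals as genetically WT, so that the groups differ in ancestry and no library comes from a receptor mutant. Animals came from at least 3 litters, and how many contributed to a library is not given in the sources used here, so p-values measure only the spread between these libraries. The granule cell markers Prox1, at 228 to 345 CPM (read counts scaled to library size by edgeR), and Calb1, at 265 to 392 CPM, were high in all 6 libraries. Of the other listed granule cell markers, Dsp ranged from 42.5 to 115 CPM, Trpc6 from 42.9 to 102 CPM and Plk5 from 67.6 to 115 CPM. Trpc6 and Plk5 lay below WT in every F1 and F2 library. Markers of interneurons, oligodendrocytes and astrocytes were also present in every library.

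Vesicle release needs a SNARE complex, a bundle formed by a vesicle protein (a Vamp) with a syntaxin and a SNAP-25 type protein of the target membrane. Munc18 proteins hold syntaxin, Munc13 proteins (Unc13) open it and so prime vesicles, Rim proteins place vesicles and calcium channels at the active zone, complexins clamp the primed complex and synaptotagmins sense calcium. Synapsins tether vesicles into a pool, and Syp and the Sv2 proteins lie in the vesicle membrane. Mossy fibre terminals of granule cells are known for strong presynaptic plasticity, and Munc13 and Rim proteins are among the factors that set it.

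Levels between genes are compared as CPM per kb of exon, averaged over the 6 libraries. Of 70 genes with an exon length, 11 lay above 100 CPM per kb, 23 lay between 10 and 100, 29 between 1 and 10, and 7 at 1 or less. Cplx2 (502 CPM per kb) and Snap25 (473 CPM per kb) were the highest, and Vamp2 at 195, Syp at 184, Cplx1 at 167, Syt1 at 162, Syn1 at 148, Syn2 at 144, Snap47 at 135 and Syt11 at 109 CPM per kb were also above 100. Within the other roles the highest levels included those of Stx7 (50.5 CPM per kb) among endosome and Golgi syntaxins, Unc13a (48.2) among Munc13 genes and Rims1 (20.9) among Rim genes. Snap91, which carries the Snap name but encodes the clathrin adaptor AP180, stood at 41.7 CPM per kb. Snap25, Cplx2 and Syt1 together held 41.8% of the summed CPM. Of the 71 genes, 67 had enough reads to be tested. Cplx4, Syt8 and Stx11 were at or near 0 in every library, and Vamp7 was listed at 0 in all 6. The symbol Vamp7 has no gene model in the GENCODE M1 annotation, so its 0 does not show that the gene is not expressed.

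**Figure D1:**
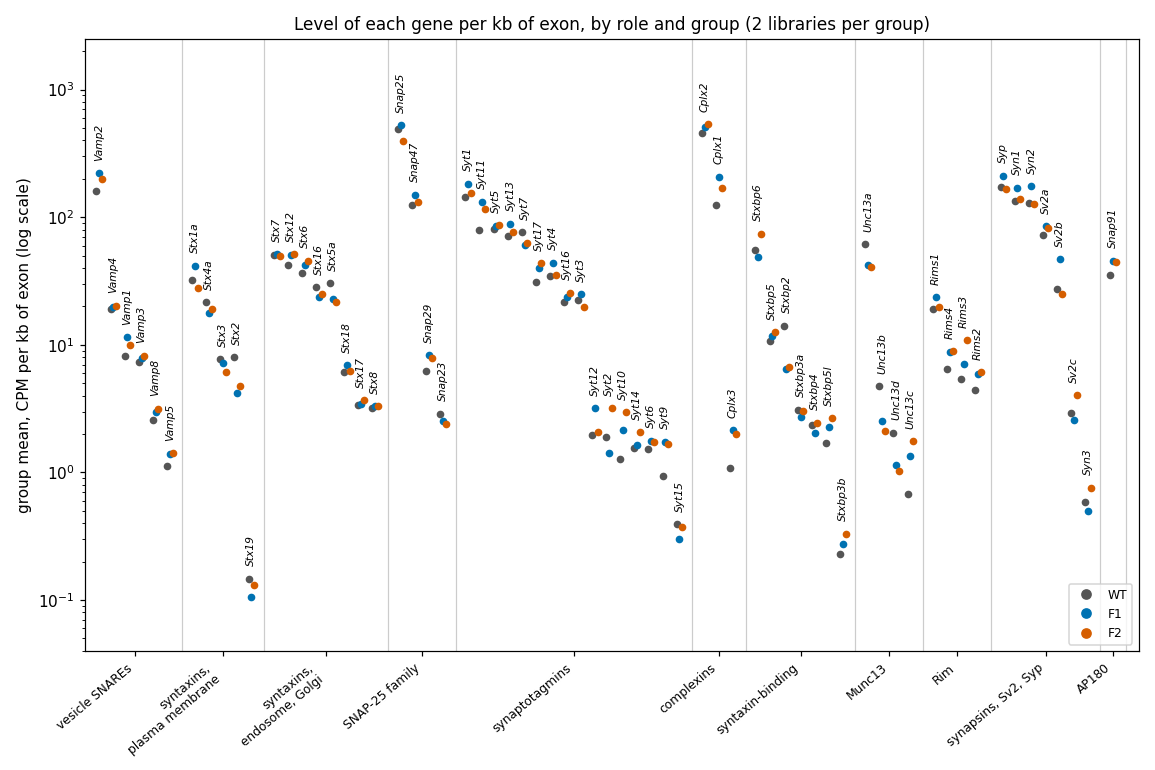
Level of 65 tested genes in CPM per kb of exon on a log axis, grouped by role, with 1 point for the mean of the 2 libraries of WT, F1 and F2. Snap25 and Cplx2 lie highest, and the 3 group means of most genes lie close together compared with the distance between genes.

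Differences were tested by the exact test of edgeR, with p-values adjusted by Benjamini-Hochberg over 17421 genes, and called at an adjusted p under 0.01. In F1, 14 of the 67 tested genes differed from WT (20.9%), against 12.3% of all tested genes. Of these 14, 9 rose, against a background of 3.77% of all genes rising, and 5 fell, against 8.54%. In F2, 13 genes differed from WT (19.4%), against 12% of all genes, with 7 rises (background 3.86%) and 6 falls (background 8.1%). Since F1 and F2 were set against the same 2 WT libraries, these counts are not independent. The 8 genes called in both, all with the same sign in F1 and F2, were Unc13a, Unc13b, Unc13c, Unc13d, Stxbp2, Stx2, Cplx1 and Syt11. They are 11.9% of the tested genes, against 7.68% of all genes. By the quasi-likelihood test of edgeR, 8 genes passed in F1 (background 5.91%), 8 in F2 (background 5.72%) and 6 in both (background 3.83%). At an adjusted p under 0.05 the exact test called 26 in F1 (background 20.8%) and 22 in F2 (background 20.7%). The counts move with single libraries. Without WT replicate 1 the exact test called 8 genes in F1 (background 5.8%), 7 in F2 (background 4.75%) and 4 in both, without WT replicate 2 it called 9 in F1 (background 8.07%), and without F1 replicate 2 it called 9 in F1 (background 6.29%). Without F2 replicate 1 it called 7 in F2 (background 4.33%) and 5 in both, and without F1 replicate 1 it called 13 in both. In bulk tissue, fewer cells of a type and less RNA per cell cannot be told apart.

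The median log2 fold change of the 67 genes was 0.19 in F1 and 0.12 in F2, beside 0.01 and 0.00 over all tested genes. In F1, 48 values were positive and 19 negative, and in F2 46 were positive and 21 negative. Libraries did not overlap between F1 and WT in 50 of the 67 genes (background 60.4%), with F1 higher in 38 (background 29.8%) and lower in 12 (background 30.6%). Between F2 and WT they did not overlap in 47 genes (background 63%), with F2 higher in 34 (background 31%) and lower in 13 (background 32.0%). The summed CPM of the 71 genes was 16015 and 15671 in WT, 18418 and 18166 in F1, and 15966 and 16612 in F2, so that the F1 sums lay above the other 4 while those of WT and F2 overlapped. The 11 genes above 100 CPM per kb all had positive values in F1, with a median log2 fold change of 0.33. Of them, 4 were called in F1 (background 12.3%). In F2, 8 of the 11 were positive, with a median of 0.11 and 2 called (background 12%).

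**Figure D2:**
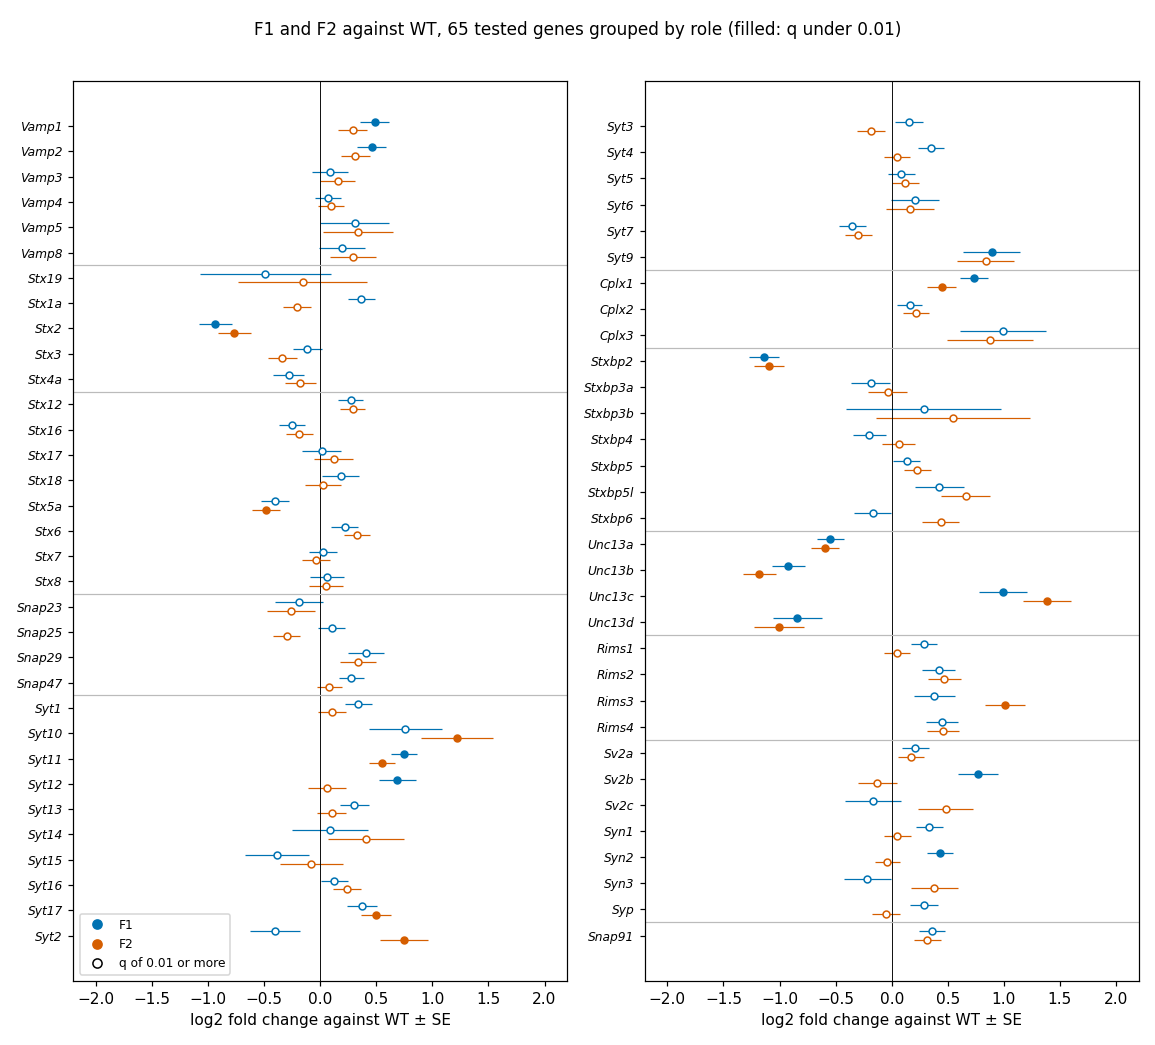
Log2 fold change against WT ± SE for F1 (blue) and F2 (orange) in 65 of the tested genes, with grey lines between roles and filled points for an adjusted p under 0.01. Unc13a, Unc13b, Unc13d, Stx2 and Stxbp2 lie to the left in both groups, and Unc13c, Cplx1 and Syt11 lie to the right in both.

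All 4 Munc13 genes were called in both F1 and F2, and Unc13c moved against the others. Unc13a, the main priming factor of forebrain excitatory synapses, fell to 0.685 of WT in F1 and 0.661 in F2. Unc13b, which encodes Munc13-2, fell to 0.528 and 0.442 of WT, and Unc13d, known for granule release in immune cells, fell to 0.557 and 0.498. Unc13c, which encodes Munc13-3 and is best known from cerebellar granule cells, rose 1.99-fold in F1 and 2.61-fold in F2. By level per kb over the 6 libraries, Unc13a stood far above the other members, at 48.2 CPM per kb beside 3.12 for Unc13b, 1.41 for Unc13d and 1.26 for Unc13c. Unc13d lay above Unc13c in WT (2.05 and 0.68 CPM per kb) and below it in F1 (1.15 and 1.35) and F2 (1.02 and 1.76). The 250 bases before the RefSeq start of Unc13a, Unc13b and Unc13c, and of Stxbp2, the Munc18 gene that fell, follow on mm9, 5′ to 3′ on the strand of the gene, because these genes differ in direction. Capitals mark a GC box (CCGCCC), an E-box (CACGTG) or a CRE core (TGACG), each sought on both strands.
Unc13a, chr8:74195657-74195906, minus strand: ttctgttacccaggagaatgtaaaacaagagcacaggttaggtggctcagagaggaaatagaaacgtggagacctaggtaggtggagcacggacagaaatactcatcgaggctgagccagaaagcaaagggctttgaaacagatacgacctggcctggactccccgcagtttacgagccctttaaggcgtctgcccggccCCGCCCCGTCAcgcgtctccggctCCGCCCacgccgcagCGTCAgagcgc
Unc13b, chr4:43071575-43071824, plus strand: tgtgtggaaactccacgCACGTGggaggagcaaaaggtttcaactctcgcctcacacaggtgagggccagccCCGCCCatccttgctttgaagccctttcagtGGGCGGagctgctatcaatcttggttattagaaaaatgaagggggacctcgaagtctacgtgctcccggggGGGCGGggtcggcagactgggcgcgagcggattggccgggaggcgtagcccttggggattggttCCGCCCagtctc
Unc13c, chr9:73816845-73817094, minus strand: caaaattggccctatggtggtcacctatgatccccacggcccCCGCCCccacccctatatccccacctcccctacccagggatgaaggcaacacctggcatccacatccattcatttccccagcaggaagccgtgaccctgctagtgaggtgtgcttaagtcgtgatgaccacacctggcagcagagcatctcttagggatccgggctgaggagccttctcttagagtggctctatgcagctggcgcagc
Stxbp2, chr8:3630859-3631108, plus strand: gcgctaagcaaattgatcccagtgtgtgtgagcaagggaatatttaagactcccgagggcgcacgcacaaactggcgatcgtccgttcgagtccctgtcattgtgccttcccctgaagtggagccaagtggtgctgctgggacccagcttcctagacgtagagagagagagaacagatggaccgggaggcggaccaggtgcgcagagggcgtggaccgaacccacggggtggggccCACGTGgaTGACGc
The window of Unc13a held 18 CpG, 2 GC boxes and 2 CRE cores. That of Unc13b held 16 CpG, 4 GC boxes and 1 E-box, and that of Stxbp2 17 CpG, 1 E-box and 1 CRE core. The window of Unc13c, the gene that rose, held 6 CpG and 1 GC box. It does not adjoin the gene's start in GENCODE M1, at chr9:73781374, and so does not describe that start. Unc13d and Stx2 had no RefSeq window. The window of Stxbp2 runs past the gene's start in GENCODE M1, at chr8:3630955. None of the marked motifs overlapped another in these windows. Over the vesicle genes, 52 of 71 had a window in the RefSeq table, with 67 windows in all. A GC box was present in 59.7% of these, against 32.7% of 32851 windows of all genes, an E-box in 13.4% against 6.02%, and a CRE core in 16.4% against 17.8%. A match is a description of the letters only.

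Unc13a measured 580 and 476 CPM in the WT libraries, 365 and 358 CPM in F1, and 344 and 355 CPM in F2. Every F1 and F2 library lay below both WT libraries, and the WT pair was the most widely spread. On the log2 scale, the difference from WT was -0.55 ± 0.12 (SE, n = 2 libraries per group) in F1 (adjusted p = 0.000233) and -0.60 ± 0.12 in F2 (adjusted p = 4.95e-05). Unc13b measured 68.9 and 59.7 CPM in WT, 38.0 and 29.9 CPM in F1, and 28.9 and 27.8 CPM in F2. Again no library of F1 or F2 reached WT, and both F2 libraries lay below both F1 libraries. Its log2 fold change was -0.92 ± 0.14 in F1 (adjusted p = 1.73e-08) and -1.18 ± 0.15 in F2 (adjusted p = 2.50e-13), and F2 against F1 gave -0.26 ± 0.15 (adjusted p = 0.672). Unc13c measured 3.85 and 5.14 CPM in WT, 8.15 and 9.72 CPM in F1, and 11.5 and 11.9 CPM in F2. Its groups did not overlap, with WT lowest and F2 highest. This was a log2 fold change of 1.00 ± 0.21 in F1 (adjusted p = 8.92e-05) and 1.38 ± 0.21 in F2 (adjusted p = 1.00e-08), while F2 against F1 gave 0.39 ± 0.20 (adjusted p = 0.611). Unc13d, the least counted of the genes that fell, measured 10.9 and 8.27 CPM in WT, 5.71 and 5.02 CPM in F1, and 4.75 and 4.83 CPM in F2. The F1 and F2 libraries of Unc13d lay below both WT libraries. Its log2 fold change was -0.84 ± 0.22 in F1 (adjusted p = 0.00163) and -1.01 ± 0.22 in F2 (adjusted p = 0.00015).

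The falls of Unc13b in F1 and F2 and the rise of Unc13c in F2 stayed past the threshold whichever library was left out. Here and in what follows, the value beside a left-out library is the log2 fold change without it. Without WT replicate 1, the other Munc13 calls against WT were lost, with log2 differences from WT of -0.40 in F1 (adjusted p = 0.041) and -0.45 in F2 (adjusted p = 0.0214) for Unc13a, 0.79 in F1 (adjusted p = 0.0299) for Unc13c, and -0.63 in F1 (adjusted p = 0.096) and -0.79 in F2 (adjusted p = 0.0322) for Unc13d. The call on Unc13a was also lost in F1 without F1 replicate 2 (-0.53, adjusted p = 0.0117) and, in F2, without F2 replicate 1 (-0.57, adjusted p = 0.0134). That on Unc13d was also lost in F1 without F1 replicate 2 (-0.75, adjusted p = 0.0403) and in F2 without F2 replicate 1 (-1.0, adjusted p = 0.0224) or F2 replicate 2 (-1.02, adjusted p = 0.0145). By edgeR's quasi-likelihood test, Unc13d in F1 missed the threshold (adjusted p = 0.0123), and the other 7 Munc13 differences passed it. With replicate number added to that test, Unc13a also missed the threshold in F1 and F2.

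**Figure D3:**
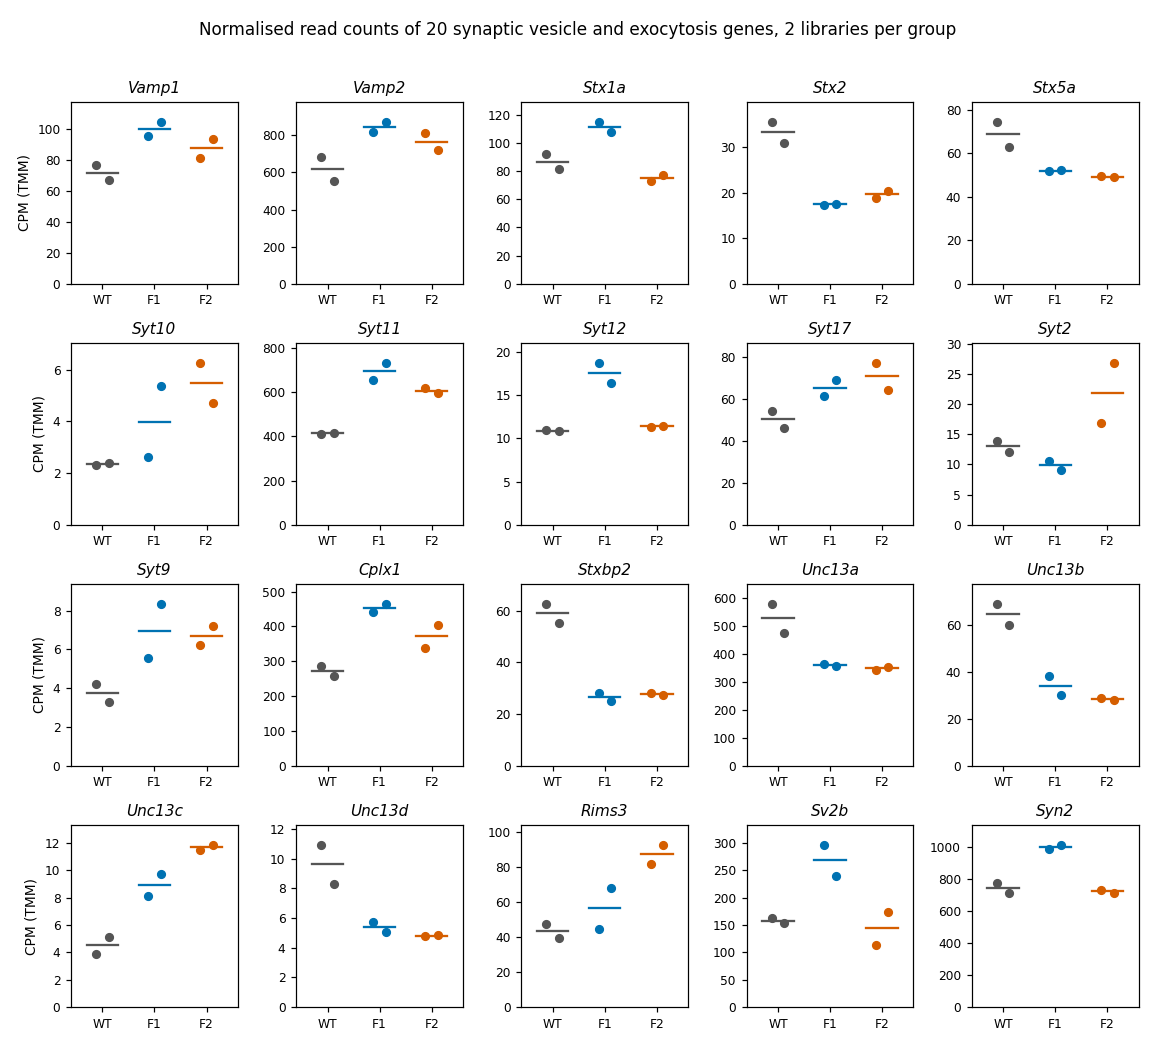
CPM of each library (points) and group mean (bars) in WT, F1 and F2 for the 20 genes called in F1 or F2 against WT or in F2 against F1, each panel starting at 0. WT lies above F1 and F2 in Unc13a, Unc13b, Unc13d, Stx2 and Stxbp2, and Syn2, Sv2b, Stx1a and Syt12 peak in F1.

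Stxbp2 and Stx2, both known for secretion outside the classical synapse, fell with the Munc13 genes. Stxbp2 encodes Munc18-2 and measured 62.7 and 55.1 CPM in WT, 28.3 and 25.1 CPM in F1, and 28.0 and 27.3 CPM in F2. The F1 and F2 libraries overlapped each other and lay far below WT. The log2 fold change was -1.14 ± 0.13 in F1 (adjusted p = 6.53e-15) and -1.09 ± 0.13 in F2 (adjusted p = 1.73e-13), the strongest adjusted p-values among these genes in F1 and F2. Stx2, a plasma membrane syntaxin, measured 35.7 and 31 CPM in WT, 17.3 and 17.6 CPM in F1, and 18.9 and 20.4 CPM in F2. All 4 F1 and F2 libraries lay below WT, with log2 differences from WT of -0.94 ± 0.15 in F1 (adjusted p = 1.53e-08) and -0.76 ± 0.15 in F2 (adjusted p = 7.46e-06). Both genes passed the threshold in F1 and F2 in every alternative tried, each library left out included. None of the other syntaxin-binding genes passed the threshold in F1 or F2. Stxbp6 (amisyn) varied within F2, at 422 and 301 CPM, beside 206 to 283 CPM in the other 4 libraries.

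RNAs that stay in the nucleus moved in the same direction as the genes that fell. The summed CPM of a list of 7 such RNAs, among them Malat1 and Meg3, was 8282 and 8005 in WT, 4088 and 3224 in F1, and 3245 and 3611 in F2. Of the 7, 6 fell in F1 (background 8.54%) and all 7 fell in F2 (background 8.1%). The share of reads that fell on no annotated exon was 17.7% and 20.7% in WT, 13.8% and 12.2% in F1, and 13.9% and 17.4% in F2, so that WT replicate 1 and F2 replicate 2 lay close together. The part of these differences in the falls of Unc13a, Unc13b, Unc13d, Stxbp2, Stx2 and Stx5a was not tested. The median GC content of the longest coding transcript was 53.5% over the 6 genes that fell, 51.6% over the 13 that rose and 48.9% over the other 48. Over all tested genes with such a transcript, these medians were 53.4%, 50.2% and 50.2%.

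Among the 6 tested vesicle SNAREs, 2 rose in F1 (background 3.77%) and none passed the threshold in F2 (background 12%). Vamp2, the main vesicle SNARE of forebrain synapses, measured 681 and 552 CPM in WT, 819 and 874 CPM in F1, and 814 and 718 CPM in F2. Both F1 libraries and both F2 libraries lay above WT, and the log2 fold change was 0.46 ± 0.13 in F1 (adjusted p = 0.00525) and 0.31 ± 0.13 in F2 (adjusted p = 0.0739). Vamp1, its close relative, measured 76.4 and 66.8 CPM in WT, 95.6 and 105 CPM in F1, and 81.4 and 93.8 CPM in F2. It rose in F1 by 0.48 ± 0.13 (adjusted p = 0.00189), and in F2 the log2 fold change was 0.29 ± 0.13 (adjusted p = 0.0898). Both calls depended on single libraries. That on Vamp2 was lost without WT replicate 2 (0.31, adjusted p = 0.174), F1 replicate 1 (0.50, adjusted p = 0.0123) or F1 replicate 2 (0.41, adjusted p = 0.0692), and with library totals in place of TMM factors (0.43, adjusted p = 0.0112). That on Vamp1 was lost without WT replicate 2 (0.39, adjusted p = 0.0826) or F1 replicate 2 (0.42, adjusted p = 0.0457). By the quasi-likelihood test neither passed (adjusted p = 0.029 for Vamp2 and 0.0144 for Vamp1).

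Of the target-membrane SNAREs, Stx2 aside, only Stx5a passed the threshold against WT. Stx5a, a Golgi syntaxin, measured 74.6 and 62.8 CPM in WT, 51.8 and 52.3 CPM in F1, and 49.4 and 48.9 CPM in F2. All F1 and F2 libraries lay below WT, with a log2 fold change of -0.48 ± 0.13 in F2 (adjusted p = 0.00163) and -0.40 ± 0.13 in F1 (adjusted p = 0.0111). The F2 call was lost without WT replicate 1 (-0.35, adjusted p = 0.103), F2 replicate 1 (-0.49, adjusted p = 0.049) or F2 replicate 2 (-0.48, adjusted p = 0.0484), and by the quasi-likelihood test (adjusted p = 0.0126). Stx7, an endosomal syntaxin, ranged from 117 to 140 CPM over the 6 libraries, with log2 differences from WT of 0.02 ± 0.12 (adjusted p = 0.933) and -0.04 ± 0.12 (adjusted p = 0.874).

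Snap25, the SNARE of the presynaptic membrane, measured 3262 and 3412 CPM in WT, 3730 and 3436 CPM in F1, and 2538 and 2882 CPM in F2. Both F1 libraries lay above WT and both F2 libraries below it, and no comparison passed the threshold. Its log2 fold change was 0.10 ± 0.12 in F1 (adjusted p = 0.599), -0.30 ± 0.12 in F2 (adjusted p = 0.055) and -0.40 ± 0.12 in F2 against F1 (adjusted p = 0.0541). None of Snap23, Snap29 and Snap47 passed the threshold in F1 or F2.

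Of the 16 tested synaptotagmins, 3 rose in F1 (background 3.77%) and 4 rose in F2 (background 3.86%). None fell in F1 or F2 (background 8.54% and 8.1%). Syt11, an abundant synaptotagmin that does not bind calcium, rose in both. It measured 413 and 416 CPM in WT, 657 and 734 CPM in F1, and 619 and 596 CPM in F2. The WT libraries were nearly equal, and all F1 and F2 libraries lay above them. On the log2 scale, the difference from WT was 0.75 ± 0.12 in F1 (adjusted p = 9.21e-09) and 0.55 ± 0.12 in F2 (adjusted p = 5.21e-05), and the F2 call was lost without F2 replicate 1 (0.52, adjusted p = 0.0105). With replicate number added to the quasi-likelihood test, Syt11 in F2 also missed the threshold. Syt1, the fast calcium sensor, ranged from 1168 to 1251 CPM in WT, from 1449 to 1613 CPM in F1 and from 1220 to 1383 CPM in F2. F1 lay above WT and F2 overlapped it, with log2 differences from WT of 0.34 ± 0.12 (adjusted p = 0.0299) and 0.11 ± 0.12 (adjusted p = 0.593), neither past the threshold.

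Syt12 rose in F1, from 11 and 10.8 CPM in WT to 18.8 and 16.4 CPM, and measured 11.4 and 11.4 CPM in F2. The F1 libraries stood apart from the other 4, which lay close together. This was a log2 fold change of 0.69 ± 0.17 in F1 (adjusted p = 0.000604) and 0.06 ± 0.17 in F2 (adjusted p = 0.857), and the difference between F2 and F1, -0.62 ± 0.17, missed the threshold (adjusted p = 0.0213). Of the exon bases of Syt12, 17.2% overlap a gene on the opposite strand. Syt9, a fast calcium sensor like Syt1, measured 4.21 and 3.27 CPM in WT, 5.55 and 8.36 CPM in F1, and 6.21 and 7.20 CPM in F2. All F1 and F2 libraries lay above WT. The log2 fold change was 0.89 ± 0.26 in F1 (adjusted p = 0.00535) and 0.84 ± 0.26 in F2, on the other side of the threshold (adjusted p = 0.0104). The call on Syt12 was lost without WT replicate 1 (0.70, adjusted p = 0.0222), WT replicate 2 (0.68, adjusted p = 0.0223) or F1 replicate 1 (0.59, adjusted p = 0.0151). That on Syt9 was lost without WT replicate 1 (1.08, adjusted p = 0.0185), WT replicate 2 (0.72, adjusted p = 0.13), F1 replicate 2 (0.57, adjusted p = 0.159), F2 replicate 1 (0.89, adjusted p = 0.0101) or F2 replicate 2 (0.89, adjusted p = 0.0106). It was also lost by the quasi-likelihood test (adjusted p = 0.024), by DESeq2 (0.90, adjusted p = 0.0105) and with the dispersion of F1 and WT alone (0.89, adjusted p = 0.0107). The call on Syt12 was also lost by the quasi-likelihood test with replicate number added.

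Syt10, Syt17 and Syt2 rose in F2. Syt10, a calcium sensor known for release of insulin-like growth factor, measured 2.32 and 2.39 CPM in WT, 2.61 and 5.38 CPM in F1, and 6.28 and 4.71 CPM in F2. The F2 libraries lay above WT, and the F1 pair spanned most of the range. On the log2 scale, the difference from WT was 1.22 ± 0.32 in F2 (adjusted p = 0.00243) and 0.76 ± 0.33 in F1 (adjusted p = 0.0827). Syt17 measured 54.0 and 46.3 CPM in WT, 61.1 and 68.7 CPM in F1, and 77.2 and 64.4 CPM in F2. F1 and F2 both lay above WT and overlapped each other, with log2 differences from WT of 0.50 ± 0.14 in F2 (adjusted p = 0.00324) and 0.37 ± 0.14 in F1 (adjusted p = 0.0354). Syt2, the fast sensor of many inhibitory and hindbrain synapses, measured 13.9 and 12.1 CPM in WT, 10.6 and 9.07 CPM in F1, and 16.8 and 26.9 CPM in F2. F1 lay below WT and F2 above it, with the F2 pair widely spread. The log2 fold change of Syt2 in F2 was 0.75 ± 0.22 (adjusted p = 0.00612), and in F1 it was -0.40 ± 0.22 (adjusted p = 0.192).

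None of these 3 rises held in every alternative. That of Syt2 was 0.37 without F2 replicate 2 (adjusted p = 0.316), 0.85 without WT replicate 1 (adjusted p = 0.0397) and 0.65 without WT replicate 2 (adjusted p = 0.105). Syt10 gave 1.20 without WT replicate 1 (adjusted p = 0.0639), 1.24 without WT replicate 2 (adjusted p = 0.0369) and 1.00 without F2 replicate 1 (adjusted p = 0.114). Syt17 gave 0.39 without WT replicate 2 (adjusted p = 0.0973) and 0.36 without F2 replicate 1 (adjusted p = 0.186). The quasi-likelihood test gave adjusted p-values of 0.0285 for Syt2, 0.0227 for Syt10 and 0.0203 for Syt17. Syt2 was also lost by edgeR's likelihood-ratio test with replicate number added.

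Cplx1, 1 of the 2 main complexins of the brain, rose in both F1 and F2. It measured 288 and 258 CPM in WT, 443 and 466 CPM in F1, and 338 and 405 CPM in F2. Its 3 groups did not overlap, with F1 highest and WT lowest. This was a log2 fold change of 0.73 ± 0.13 in F1 (adjusted p = 4.28e-07), past the threshold in every alternative. In F2 it was 0.44 ± 0.13 (adjusted p = 0.00496), which was lost without WT replicate 1 (0.52, adjusted p = 0.0196), WT replicate 2 (0.37, adjusted p = 0.107) or F2 replicate 2 (0.31, adjusted p = 0.18), and by the quasi-likelihood test (adjusted p = 0.0233). The F2 call on Cplx1 was also lost by edgeR's likelihood-ratio test with replicate number added. Cplx2, which stood beside Snap25 among the most abundant genes per kb, measured 2197 and 2328 CPM in WT, 2450 and 2608 CPM in F1, and 2634 and 2620 CPM in F2. F1 and F2 lay above WT without overlap, and the log2 differences from WT of 0.16 ± 0.11 (adjusted p = 0.33) and 0.22 ± 0.11 (adjusted p = 0.168) did not pass.

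Rims3, a short Rim isoform gene, rose 2.02-fold in F2. It measured 47.3 and 39.0 CPM in WT, 44.4 and 68.1 CPM in F1, and 81.6 and 92.5 CPM in F2. Both F2 libraries lay above all others, and the F1 pair overlapped WT. The log2 fold change was 1.01 ± 0.18 in F2 (adjusted p = 8.91e-07), past the threshold in every alternative, and 0.38 ± 0.18 in F1 (adjusted p = 0.116). F2 against F1 gave 0.63 ± 0.18 and missed the threshold (adjusted p = 0.0366). Rims1, the main Rim gene here, measured 139 and 141 CPM in WT, 163 and 179 CPM in F1, and 148 and 140 CPM in F2. F1 lay above WT and F2 overlapped it, with log2 differences from WT of 0.29 ± 0.11 (adjusted p = 0.0542) and 0.05 ± 0.12 (adjusted p = 0.837). Rims2 and Rims4 had positive values of 0.42 to 0.47 in F1 and F2, none past the threshold.

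Among synapsins and vesicle membrane proteins, Syn2 and Sv2b rose in F1, and no gene passed the threshold in F2. Syn2, a synapsin of the reserve pool, measured 775 and 710 CPM in WT, 990 and 1013 CPM in F1, and 732 and 714 CPM in F2. The F1 pair stood above the other 4 libraries. Syn2 had a log2 fold change of 0.43 ± 0.11 in F1 (adjusted p = 0.0019), -0.04 ± 0.11 in F2 (adjusted p = 0.865) and -0.47 ± 0.11 in F2 against F1 (adjusted p = 0.00569). Sv2b, a vesicle glycoprotein, measured 162 and 153 CPM in WT, 297 and 240 CPM in F1, and 114 and 174 CPM in F2. The F1 pair again stood above the rest, and the F2 pair lay on either side of WT. The log2 fold change was 0.77 ± 0.17 in F1 (adjusted p = 0.000232), -0.13 ± 0.18 in F2 (adjusted p = 0.665) and -0.90 ± 0.17 in F2 against F1 (adjusted p = 0.000122). Syp (synaptophysin), a common marker of presynaptic terminals, measured 941 and 866 CPM in WT, 1192 and 1013 CPM in F1, and 846 and 896 CPM in F2. F1 lay above WT and F2 overlapped it, with log2 differences from WT of 0.29 ± 0.12 (adjusted p = 0.0789) and -0.05 ± 0.12 (adjusted p = 0.823), and 16.8% of its exon bases overlap a gene on the opposite strand.

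The F1 call on Syn2 was lost without WT replicate 1 (0.49, adjusted p = 0.011), WT replicate 2 (0.37, adjusted p = 0.0684) or F1 replicate 2 (0.42, adjusted p = 0.0258), and that on Sv2b without WT replicate 2 (0.73, adjusted p = 0.017) or F1 replicate 1 (0.61, adjusted p = 0.0173). By the quasi-likelihood test the adjusted p was 0.0171 for Syn2 and 0.0118 for Sv2b. Of 8 marker genes of CA pyramidal and mossy cells, 1 rose (Bok, background 3.77%) and 1 fell (Csf2rb2, background 8.54%) in F1. In F2, 1 rose (Mpped1, background 3.86%) and 1 fell (Csf2rb2, background 8.1%). Only Bok was called in F2 against F1 (lower, background 0.436%). Bok was highest in F1, at 0.58 ± 0.16 against WT (adjusted p = 0.00293). F2 against F1 gave -0.75 ± 0.16 (adjusted p = 0.000576), and neither passed the quasi-likelihood test. Bok did not stand for the list, whose median log2 fold change against WT was -0.07 in F1 and -0.09 in F2. Csf2rb2 gave -1.86 ± 0.26 in F1. The 8 genes summed to 463 and 503 CPM in WT, 482 and 376 in F1, and 459 and 459 in F2. The part of such cells in Syn2 and Sv2b was not tested.

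A direct test of F2 against F1 called 4 of the 67 genes (5.97%), against 0.74% of all tested genes. It called 1 gene without F1 replicate 1 (background 0.654%), 1 without F2 replicate 1 (background 0.31%) and 2 without F2 replicate 2 (background 0.631%). Of these, 3 were lower in F2 (Stx1a, Sv2b and Syn2, background 0.436%) and 1 was higher (Syt2, background 0.304%). Stx1a, a syntaxin of the presynaptic membrane, measured 91.9 and 81.1 CPM in WT, 115 and 108 CPM in F1, and 72.7 and 77.2 CPM in F2. F1 lay above WT and F2 below it, and F2 against F1 gave -0.57 ± 0.12 (adjusted p = 0.000671). Against WT, Stx1a did not pass in either group, with 0.37 ± 0.12 in F1 (adjusted p = 0.0179) and -0.21 ± 0.12 in F2 (adjusted p = 0.231). Syt2 gave 1.15 ± 0.22 in F2 against F1 (adjusted p = 7.58e-05). Libraries of F1 and F2 did not overlap in 34 of the 67 genes (background 39.1%), with F2 lower in 23 (background 19.7%) and higher in 11 (background 19.4%).

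By the quasi-likelihood test none of the 67 genes passed in F2 against F1 (background 0.0115%), where 16 had an unadjusted p under 0.05 (23.9%, against 9.01% of all tested genes), while DESeq2 called 4 (background 0.591%). At an adjusted p under 0.05 the exact test called 7 (background 1.32%). The smallest adjusted p-values by the quasi-likelihood test were 0.0484 for Stx1a and 0.0484 for Syt2. The calls also rest on single libraries. Syn2 was lost when any F1 or F2 library was left out, with values from -0.49 to -0.45 and adjusted p-values of 0.0375 and 0.0382 without F1 replicate 1 and 2, and 0.203 and 0.163 without F2 replicate 1 and 2. With no filter on low counts it was also lost (-0.47, adjusted p = 0.0111), as it was by edgeR's likelihood-ratio test with replicate number added. Stx1a was lost without F1 replicate 1 (-0.52, adjusted p = 0.0258), F2 replicate 1 (-0.53, adjusted p = 0.175) or F2 replicate 2 (-0.62, adjusted p = 0.0234). Sv2b was lost without F1 replicate 1 (-0.74, adjusted p = 0.0256) or F2 replicate 1 (-0.62, adjusted p = 0.0711), and Syt2 without F2 replicate 2 (0.77, adjusted p = 0.0713).

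**Figure D4:**
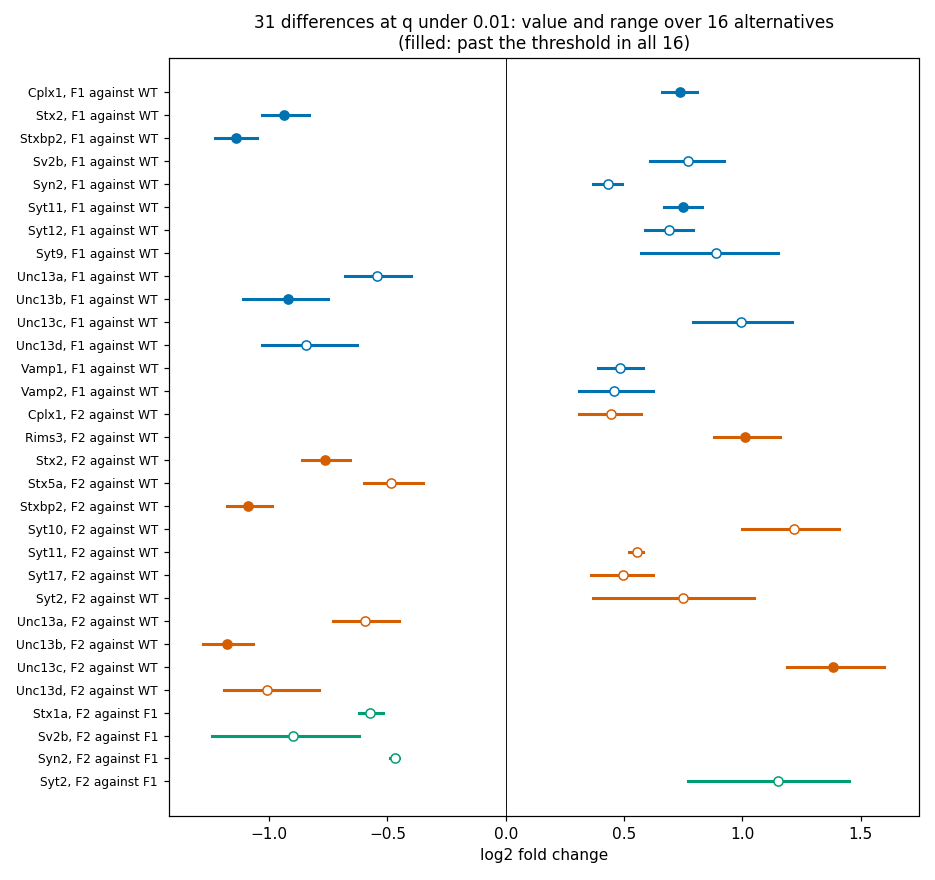
Log2 fold change (points) and its lowest and highest value (lines) over 16 alternatives for each of the 31 called differences, with filled points where the call held in all 16. No line crosses 0, and 10 points are filled, among them Unc13b, Stx2 and Stxbp2 in both F1 and F2.

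Other genes of the vesicle cycle were taken from 7 lists of 74 genes, 73 of them tested. In F1, 13 rose (background 3.77%) and 2 fell (background 8.54%), which together are 20.5% of the 73, against 12.3% of all tested genes. In F2, 5 rose (background 3.86%) and 1 fell (background 8.1%), together 8.22% of the 73, against 12% of all tested genes, while 1 was lower in F2 than in F1 (background 0.436%). The quasi-likelihood test called 4 in F1 (background 5.91%) and 3 in F2 (background 5.72%). The exocyst, which tethers secretory vesicles, had 3 rises among 9 genes in F1 and 1 in F2, with median log2 differences from WT of 0.32 and 0.17. Of 21 endocytosis genes, 4 rose and 1 fell in F1, and 1 rose and 1 fell in F2. Of 9 further active-zone genes, such as Bsn and Pclo, 1 fell in F1 (Ppfia1) and none passed in F2. Of 8 vesicle transporters, 1 rose in F1 and 2 in F2. Among 10 tested tetraspan vesicle proteins 2 rose in F1 and none passed in F2, among 12 Rab3 and calcium-dependent priming genes 2 rose in F1 and 1 in F2, and among 4 SNARE disassembly genes 1 rose in F1 and none passed in F2.

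Cadps2, Slc32a1, Exoc6 and Dnm2 were called in both F1 and F2. Cadps2, a priming factor of dense-core vesicles, measured 45.9 and 35.3 CPM in WT, 60.2 and 58.6 CPM in F1, and 59.9 and 61.9 CPM in F2, with log2 differences from WT of 0.55 ± 0.14 (adjusted p = 0.0011) and 0.58 ± 0.14 (adjusted p = 0.000447). Slc32a1, the vesicular transporter of GABA, measured 28.8 and 25.6 CPM in WT, 43.7 and 41.9 CPM in F1, and 39.3 and 43.5 CPM in F2, with log2 differences from WT of 0.65 ± 0.13 (adjusted p = 2.39e-05) and 0.61 ± 0.13 (adjusted p = 0.000129). In both genes every F1 and F2 library lay above WT. Exoc6 rose by 0.58 ± 0.15 (adjusted p = 0.00145) and 0.61 ± 0.15 (adjusted p = 0.000894). Dnm2, the widely expressed dynamin of membrane fission, measured 78.5 and 59.0 CPM in WT, 46.6 and 43.8 CPM in F1, and 41.2 and 45.2 CPM in F2. Every F1 and F2 library lay below WT, with log2 differences from WT of -0.61 ± 0.15 (adjusted p = 0.00054) and -0.67 ± 0.15 (adjusted p = 0.00011). By the quasi-likelihood test Slc32a1 passed in both (adjusted p = 0.00321 and 0.00512) and Dnm2 in F2 (adjusted p = 0.00748), while Dnm2 in F1 (adjusted p = 0.0115), Cadps2 (adjusted p = 0.0137 and 0.0105) and Exoc6 (adjusted p = 0.0142 and 0.0121) did not. Sh3gl2 (endophilin A1), an endocytic partner of dynamin, was lower in F2 than in F1. It measured 285 and 286 CPM in WT, 389 and 364 CPM in F1, and 248 and 265 CPM in F2. F2 against F1 gave -0.55 ± 0.11 (adjusted p = 0.000409), and F1 against WT gave 0.40 ± 0.11 (adjusted p = 0.00485). By the quasi-likelihood test neither passed (adjusted p = 0.0455 and 0.0173).

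Marker lists of other cell types also differed between libraries, and their counts are to be read against the shares of all tested genes that rose (3.77% in F1 and 3.86% in F2). The summed CPM of 10 oligodendrocyte genes was 1135 and 2061 in WT, 3095 and 2326 in F1, and 1603 and 3010 in F2, with 4 of the 10 rising in F1 and 2 in F2. That of 6 astrocyte genes was 1958 and 2226 in WT, 2411 and 3031 in F1, and 3378 and 2783 in F2, with 1 rising in F1 and 4 in F2. Of 8 microglial genes, 5 rose in F2 and none passed in F1, and their sum was 128 and 126 CPM in WT, 151 and 174 in F1, and 195 and 167 in F2. Endothelial markers summed to 69.1 and 76.6 CPM in WT, 77.7 and 98.3 in F1, and 103 and 99.5 in F2. Of 8 interneuron genes, 1 rose in F1 and 2 rose in F2 (Gad2 and Slc32a1), and the sum was 650 and 719 CPM in WT, 876 and 633 in F1, and 726 and 809 in F2. The 5 granule cell genes summed to 847 and 803 CPM in WT, 666 and 815 in F1, and 938 and 906 in F2. Of these, Trpc6 and Plk5 fell in both groups (background 8.54% in F1 and 8.1% in F2). Choroid plexus markers stayed between 14.7 and 19.8 CPM in sum, and Folr1 and Clic6 were near 0. No oligodendrocyte or microglial gene passed the quasi-likelihood test in F1 or F2, and the astrocyte list had no call in F1 and 1 in F2. At an unadjusted p under 0.05 that test gave 7 oligodendrocyte, 4 microglial and 5 astrocyte genes in F1 (background 33.3%). In F2 it gave 6, 7 and 6 (background 33.2%). The part of these lists in the rises of Syt11, Cplx1, Rims3, Unc13c and the other genes was not tested.

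**Figure D5:**
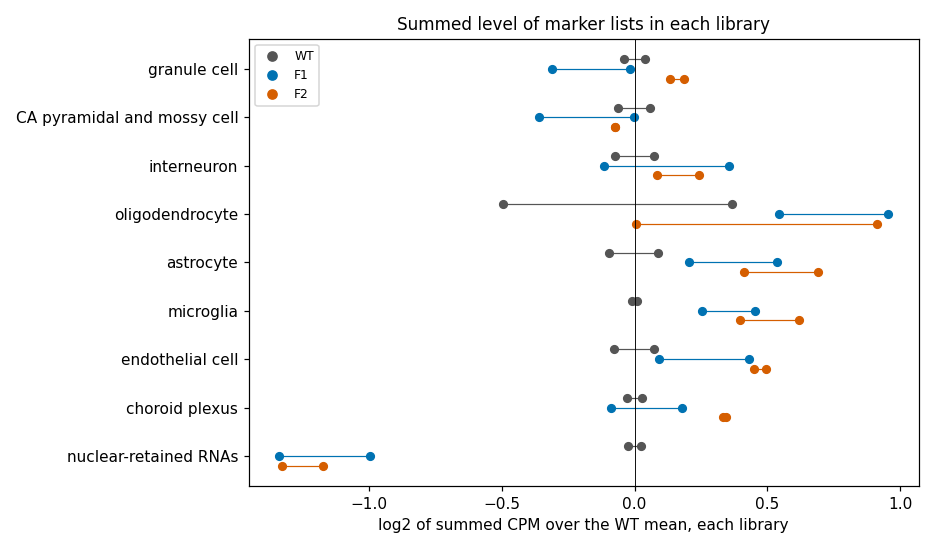
Log2 ratio of the summed CPM of each marker list to its WT mean, with the 2 libraries of each group joined by a line (WT grey, F1 blue, F2 orange). The nuclear-retained RNAs lie lowest in all F1 and F2 libraries, and the oligodendrocyte list has the widest spread within WT and within F2.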

How the data were processed

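RNA was extracted from the microdissected ventral dentate gyrus of WT, F1 and F2 males and sequenced as single-end reads of 50 bp from poly(A) libraries. The authors aligned reads to mm9 with TopHat and counted them per gene with HTSeq in intersection-strict mode, which drops reads reaching outside annotated exons. The deposited values are raw counts per gene symbol, and reads on genes numbered 26358165 to 33727936 per library. The number of libraries limits the precision of well-counted genes, and for genes of few reads, such as Stx19, Stxbp3b and Syt10, the counting limits it too. The 5 summary lines of each file were left out, and multimapped reads (25.1% to 33.2%) are not in the counts, so genes with near-identical copies are uncertain. The bisulfite samples were not analysed here.

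Genes passing filterByExpr (17421) were TMM-normalised and compared with the exact test of edgeR 4.0.16 (R 4.3.3), with common then tagwise dispersion over all 6 libraries. The common dispersion of 0.0113 is a coefficient of variation of 10.6%. P-values were adjusted by Benjamini-Hochberg over all tested genes, with a threshold of 0.01. The procedure was also run on simulated counts in which every gene had the same dispersion. That run does not show how often calls are false in these libraries. Standard errors follow from the tagwise dispersion by the delta method. CPM are counts divided by the TMM-scaled library size, and exon lengths, positions and overlaps come from GENCODE M1 on mm9. Promoter windows of RefSeq were placed on mm9 by exact match. Alternatives were the quasi-likelihood test and a likelihood-ratio test of edgeR, DESeq2 1.42.0, other scalings, filter, dispersion and threshold, and each library left out. The genes, lists and tests were chosen with earlier results of these data known. Named are genes past the threshold, the highest per kb in each role, untested genes, and listed vesicle-cycle genes called in both F1 and F2. Other named genes were chosen after their values were seen. Replicates were not duplicates (chi-square per degree of freedom 18.5 to 23.0). Some genes are not reported here by name or plotted singly, and the counts include them.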

Additional observations from a re-analysis of the deposited data

Results flagged for a closer look

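Of the tested genes, 4 passed the direct test of F2 against F1, and in 2 others the F1 and F2 libraries lay on opposite sides of both WT libraries. By the direct test with edgeR, F2 lay below F1 in Sv2b (log2 fold change -0.90), Stx1a (-0.57) and Syn2 (-0.47), and above F1 in Syt2 (1.15). In Snap25 (-0.40) and Syt3 (-0.34, F2 against F1) both F1 libraries lay above both WT libraries and both F2 libraries lay below them. For this pair of genes the difference missed the threshold, with adjusted p-values of 0.0541 for Snap25 and 0.234 for Syt3. Syt3, a synaptotagmin of high calcium affinity, measured 71.5 and 68.3 CPM in WT, 81.4 and 74.4 CPM in F1, and 56.0 and 67.1 CPM in F2. Sv2b had the widest F2 pair among the genes that were lower in F2, and the Syt2 difference was largest in F2 replicate 2.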

How the results depend on the processing

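The 31 called differences were recomputed under 16 alternatives each, 496 values in all, of which 402 kept their side of the threshold, 94 lost it and 0 changed sign. The alternatives include the same exact test at a looser threshold, which every called difference passes by construction. They also include leaving out a library of the group not compared, which removes no data from the compared groups. The total of 402 is therefore not a count of independent checks and overstates how firmly the calls hold.

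Called genes numbered 14 in F1 against WT, 13 in F2 against WT, 4 in F2 against F1 and 8 in both F1 and F2. The quasi-likelihood test without a block called 8, 8 and 0 in the 3 comparisons. At an unadjusted p under 0.05 it gave 36, 30 and 16 genes (33.3%, 33.2% and 9.01% of all tested genes). Of the listed vesicle-cycle genes it called 4 in F1 and 3 in F2. At a threshold of 0.05 the counts were 26, 22 and 7, with 15 in both, and 29 and 12 listed genes. The labels give replicate numbers only, so whether these pair the samples is not known. Over all tested genes, deviations of same-numbered libraries correlated at -0.03 (WT and F1), -0.08 (WT and F2) and -0.18 (F1 and F2). Over the 67, the correlations were -0.05, 0.15 and -0.64. With a single deviation per group, these values cannot settle whether samples were paired or shared a batch. With the replicate block, the quasi-likelihood test called 6, 6 and 0 genes (4.87%, 4.35% and 0.0517% of all tested genes). It called 4 in both F1 and F2, and 3 and 1 listed genes. At an unadjusted p under 0.05 it gave 32, 28 and 16 (29.5%, 29.4% and 7.31% of all). The likelihood-ratio test with the block called 14, 11 and 3 (10%, 10.1% and 0.672% of all). The crossed F2 numbers, added after seeing the data, gave 19, 18 and 6 (15.4%, 15.8% and 1.34% of all). DESeq2 called 15, 14 and 4 (9.46%, 9.44% and 0.591% of all).

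Leaving out each library gave 8 to 16 genes in F1, 7 to 17 in F2, 1 to 6 in F2 against F1 and 4 to 13 in both, and 5 to 12 and 2 to 8 listed genes. The lowest F1 and F2 counts came without WT replicate 1 (8 and 7), and F2 also gave 7 without F2 replicate 1. Without WT replicate 1 the uncalled value of Syn2 in F2 turned from -0.04 to 0.03, and without F2 replicate 1 that of Sv2b turned from -0.13 to 0.15. Over all libraries left out, these values ran from -0.10 to 0.03 for Syn2 and from -0.47 to 0.15 for Sv2b. The largest move of the median of all genes under another scaling was -0.025 on the log2 scale (library totals, F1).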

Other observations

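Slc17a6 (VGLUT2), the vesicular glutamate transporter of thalamic and other subcortical neurons, rose in F2 among the listed vesicle-cycle genes. It measured 24.2 and 19.0 CPM in WT, 14.1 and 30.8 CPM in F1, and 37.8 and 50.4 CPM in F2. Both F2 libraries lay above the other 4, and F2 replicate 2 was highest, as it was for Syt2. The log2 fold change was 1.03 ± 0.28 in F2 (adjusted p = 0.00274) and 0.06 ± 0.28 in F1 (adjusted p = 0.929). By the quasi-likelihood test the F2 rise missed the threshold (adjusted p = 0.0284). Slc17a7 (VGLUT1), the main transporter of granule cells, gave -0.03 ± 0.12 in F2 (adjusted p = 0.924) and 0.23 ± 0.12 in F1 (adjusted p = 0.168). Amph (amphiphysin) and Syngr1 (synaptogyrin 1) rose in F1, by 0.61 ± 0.13 (adjusted p = 3.7e-05) and 0.66 ± 0.12 (adjusted p = 5.44e-06), and in F2 their values of 0.23 ± 0.13 (adjusted p = 0.19) and 0.34 ± 0.13 (adjusted p = 0.0337) did not pass.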
